A study of Mus musculus with 57 samples.

Results

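The mitochondrially encoded genes are the 37 genes whose symbol begins with mt- and whose chromosome in the count tables is the mitochondrial genome, out of 52853 genes with a length and counts. They comprise 13 mRNAs, 2 rRNAs and 22 tRNAs. The rule uses no measured value.

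RNA sequencing was performed on inguinal white adipose tissue (WAT) and brown adipose tissue (BAT) of mice in which arginine 707 of mitofusin 2 (Mfn2, a GTPase of the outer mitochondrial membrane that fuses mitochondria) was replaced by tryptophan, a change found in people with MFN2-associated lipomatosis. Male mice homozygous for this allele (KI) were compared with wild-type (WT) mice. The allele is in every cell type, not in adipocytes alone. It was made by CRISPR/Cas9, descends from a single founder on the C57BL/6J background and comes with a neighbouring silent change that creates an EcoRV site. From 5 weeks of age the mice received chow or a high-fat diet (HFD) with 45% of its energy as fat for 6 months. The 6 groups were inguinal WAT on HFD (8 WT, 8 KI), inguinal WAT on chow (7 WT, 6 KI) and BAT on HFD (6 WT, 6 KI). Each count column is 1 mouse and tissue, and in inguinal WAT on HFD it combines 2 technical libraries of that mouse.

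Mitochondrial DNA encodes 13 subunits of the respiratory chain and ATP synthase, with the rRNAs and tRNAs that translate them. Every other subunit is encoded in the nucleus and imported. Each strand of the circle is transcribed into long precursors, from which the mRNAs and rRNAs are released largely by excision of the tRNAs that lie between them, and most mRNAs then receive a poly(A) tail. Brown adipocytes, which burn fuel for heat, are rich in these transcripts.

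Total counts per mouse were 8042591 to 10522554 in BAT, 8668279 to 11720458 in inguinal WAT on chow and 17572752 to 25680411 in inguinal WAT on HFD. Ucp1, the uncoupling protein that defines brown adipocytes, was at 3345 to 6390.3 CPM (counts scaled to library size by TMM within each count table) in BAT and at no more than 2.01 CPM in inguinal WAT. Mfn2 itself was at 147, 176 and 223 CPM (lowest, median and highest mouse) in WT and 182, 234 and 273 CPM in KI inguinal WAT on HFD. A point mutation is not visible in a gene count, so this level does not check the genotype. Chow KI mouse 4 stood apart, with the 10 skeletal muscle markers summing to 77372 CPM against 18.2 to 802 CPM in the other 12 chow mice, and the chow shares, calls and ratios are also given without it.

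The genes are packed end to end on the circle (GRCm38, chromosome MT), with mt-Rnr1 at 70-1024, mt-Rnr2 at 1094-2675 and then the mRNAs in the order mt-Nd1, mt-Nd2, mt-Co1, mt-Co2, mt-Atp8, mt-Atp6, mt-Co3, mt-Nd3, mt-Nd4l, mt-Nd4, mt-Nd5, mt-Nd6 and mt-Cytb. The annotation places 9 members (mt-Nd6 and 8 tRNAs) on the opposite strand to the other 28. Several genes share bases, which limits what a count of each can mean, so the shared stretches are shown here from the GENCODE vM21 transcripts. The last 53 bases of mt-Atp8 (MT:7917-7969) hold the first 43 bases of mt-Atp6, in capitals.
mt-Atp8 end: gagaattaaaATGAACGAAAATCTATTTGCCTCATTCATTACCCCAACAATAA
The end of mt-Co1 (MT:6849-6872, capitals mark its stop codon) meets the end of mt-Ts1, a serine tRNA annotated on the opposite strand (MT:6870-6938), whose capitals pair with that stop codon.
mt-Co1 end: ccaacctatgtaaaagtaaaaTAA
mt-Ts1: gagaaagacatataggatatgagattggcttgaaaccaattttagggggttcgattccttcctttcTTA
The ends of mt-Nd5 (MT:13536-13565) and mt-Nd6 (MT:13552-13581) face each other, and the capitals in each pair with those in the other.
mt-Nd5 end: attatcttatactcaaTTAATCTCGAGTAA
mt-Nd6 end: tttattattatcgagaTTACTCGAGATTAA
Other mRNAs carry only the T of their stop codon in the DNA, as at the ends of mt-Nd4 (MT:11521-11544) and mt-Cytb (MT:15265-15288), and the poly(A) tail supplies the rest.
mt-Nd4 end: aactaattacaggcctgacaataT
mt-Cytb end: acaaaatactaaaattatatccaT

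The counting treated the strands differently, but whether the reads kept the strand of their RNA could not be told. Nuclear genes lying wholly within the exons of a well-counted gene on the opposite strand were examined. In inguinal WAT on HFD 121 of 135 had counts. Their median density was 0.929 times that of the surrounding gene, with quartiles of 0.0819 and 2.79. The medians were 1.47 on chow (quartiles 0.240 and 3.34) and 1.96 in BAT (quartiles 0.0985 and 3.19). Among those within a gene on the same strand 0 of 245 had counts, and the other tables gave 70 of 75 and 42 of 46 against 0 of 167 and 0 of 127. For a member annotated on the opposite strand, such as mt-Nd6 or mt-Ts1, the strand of the RNA counted is therefore not known. The 22 tRNAs are 59 to 75 bases long, shorter than the mates of 150 bases that were sequenced, so a count on a tRNA can also come from a longer RNA. How reads reaching a neighbouring gene on the same strand were counted is not given, and genes nested on the same strand had 0 counts.

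A second limit is nuclear. Chromosome 1 carries a block of near-identical copies of mitochondrial DNA (1:24611535-24616197), annotated as 7 separate genes. A stretch of mt-Nd3 (MT:9459-9518) and the matching start of its copy Gm28438 are shown, with the single difference among their 345 aligned bases in capitals (T3C, counted from the first base of mt-Nd3).
mt-Nd3: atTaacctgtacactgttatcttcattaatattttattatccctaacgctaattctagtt
Gm28438: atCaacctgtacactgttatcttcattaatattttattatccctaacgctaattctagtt
The mt-Co1 copy Gm29216 has 6 differences over 492 bases, all at its start, as the capitals in mt-Co1 (MT:6381-6440) and the copy mark.
mt-Co1: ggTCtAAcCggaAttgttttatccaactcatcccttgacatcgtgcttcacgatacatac
Gm29216: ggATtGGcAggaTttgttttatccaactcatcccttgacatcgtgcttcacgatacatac
The copies of mt-Co2 (Gm28661), mt-Atp6 (Gm10925), mt-Co3 (Gm28437), mt-Nd4l (Gm10222) and the first 876 bases of mt-Nd4 (Gm28439) have 0 mismatches. Reads from these stretches cannot be assigned to the mitochondrial or the nuclear place by sequence, and how such reads were counted is not given in the sources used here.

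This division ran through the levels. In WT inguinal WAT on HFD the 7 mRNAs mt-Co1, mt-Nd1, mt-Cytb, mt-Nd6, mt-Nd2, mt-Nd4 and mt-Nd5 had median levels per kilobase of 24439, 10991, 10392, 10041, 9777, 6077 and 3594 CPM. The other 6, mt-Co2, mt-Atp6, mt-Co3, mt-Nd3, mt-Nd4l and mt-Atp8, were at 57.6, 55.0, 44.3, 43.0, 12.6 and 11.2 CPM per kilobase. Of these 6, all except mt-Atp8 had 97.6% to 99.9% of their 100-base windows in an annotated gene outside the mitochondrial genome. For mt-Nd4 the share was 60.8%, for mt-Co1 30.8% and for mt-Nd2 3.19%, and it was 0% for mt-Nd1, mt-Nd5, mt-Nd6, mt-Cytb, mt-Atp8 and both rRNAs. mt-Atp8 lies between copied genes, and the bases between their copies on chromosome 1 were not analysed here.

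The copies took counts on the same scale as the members they match. In inguinal WAT on HFD the count of mt-Co3 was 1.00 times that of its copy, the count of mt-Co2 0.952 times, mt-Atp6 0.623 times, mt-Nd4l 1.34 times and mt-Nd3 6.38 times. For mt-Nd4 and mt-Co1, copied in part on chromosome 1, the member had 390 and 724 times the counts of that copy. Chromosome 2 carries less similar copies, among them Gm13340, over all 1545 bases of mt-Co1 at 97.6% identity. Others there are Gm13341 (mt-Co2) and Gm13339 (mt-Nd2). In WT inguinal WAT on HFD Gm13340 had a mean of 926.5 counts and Gm13341 608, against 730696 for mt-Co1 and 843.5 for mt-Co2. The 6 low mRNAs held 0.130% to 0.408% of the mRNA counts in any mouse, so totals over the mRNAs are totals over the other 7.

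**Figure D1:**
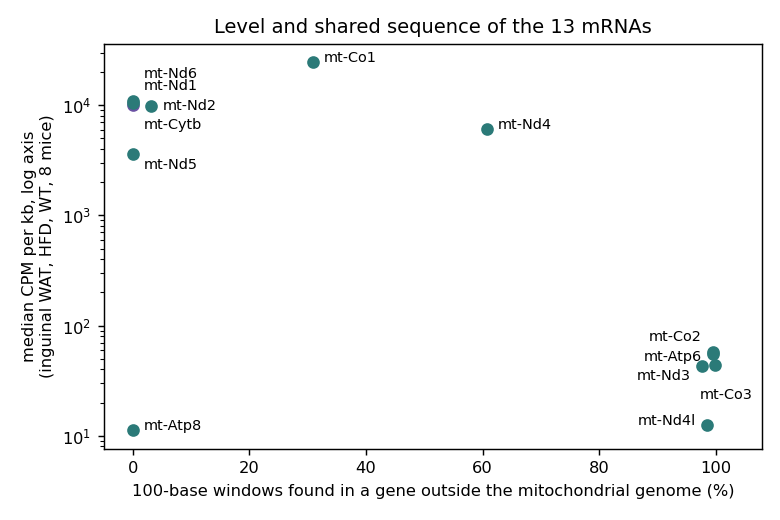
Median level of each mRNA in WT inguinal WAT on HFD (CPM per kilobase, log axis) against the share of its 100-base windows that also occur in an annotated gene outside the mitochondrial genome (%). The 5 mRNAs with shares of 97.6% or more lie at 12.6 to 57.6 CPM per kilobase, mt-Atp8 lies as low at a share of 0%, and the other 7 mRNAs lie at 3594 or above.

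KI mice had a smaller share of all counts on the 37 genes in each of the 3 comparisons. In inguinal WAT on HFD the share was 9.46% ± 3.05 in WT (SD, n = 8, range 5.40% to 14.8%) and 2.61% ± 0.497 in KI mice (n = 8, range 2.15% to 3.68%), with no overlap. In inguinal WAT on chow it was 3.70% ± 0.870 (n = 7, range 2.39% to 5.12%) and 2.22% ± 0.800 (n = 6, range 1.73% to 3.84%). The chow groups overlapped through KI mouse 4 alone, at 3.84%, and the other 5 KI mice lay at 1.73% to 2.01%. In BAT the shares were 16.3% ± 1.45 (n = 6, range 14.6% to 18.4%) and 11.4% ± 0.816 (n = 6, range 10.6% to 12.8%), again without overlap. In bulk tissue a smaller share from fewer cells or mitochondria cannot be told apart from less RNA in each.

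The classes did not move alike. The mRNA share of all counts in inguinal WAT on HFD was 4.95%, 8.88% and 13.6% (lowest, median and highest) in WT and 1.96%, 2.23% and 3.22% in KI mice. The tRNA share was 0.336%, 0.684% and 1.01% against 0.103%, 0.141% and 0.264%, and neither class overlapped between genotypes. The rRNA share overlapped, at 0.113%, 0.211% and 0.396% against 0.0901%, 0.109% and 0.201%. In chow-fed mice the rRNA share was at 0.0852%, 0.112% and 0.219% in WT and 0.136%, 0.183% and 0.224% in KI mice, or 0.136%, 0.164% and 0.203% without KI mouse 4. In BAT it was 0.446%, 0.864% and 1.21% in WT and 0.679%, 1.34% and 1.65% in KI mice, so in these tissues the KI median was the larger and the ranges overlapped. Libraries were made from poly(A)-selected RNA, so rRNA and tRNA counts cover only molecules that passed that selection.

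**Figure D2:**
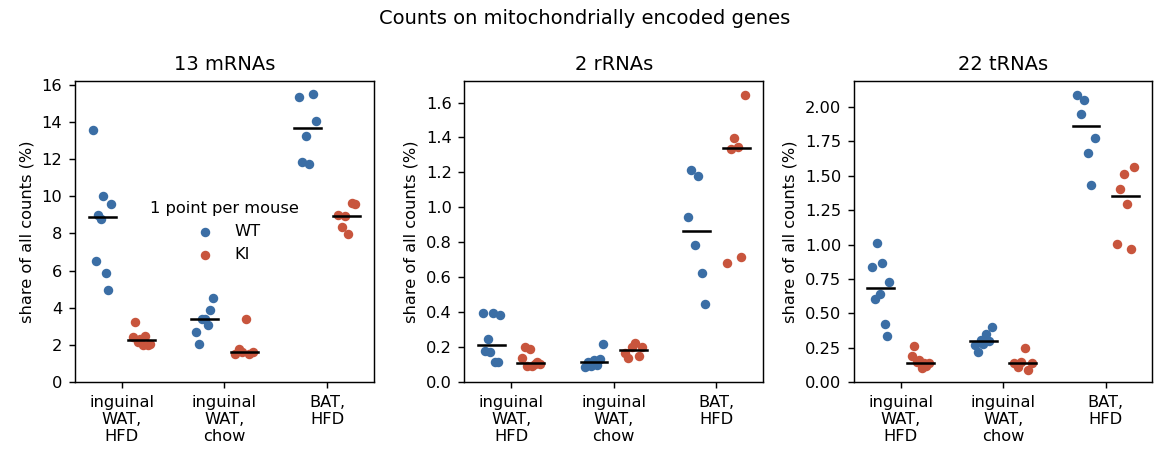
Share of all counts (%) on mitochondrially encoded mRNAs, rRNAs and tRNAs, 1 point per mouse, for WT and KI mice in inguinal WAT on HFD, inguinal WAT on chow and BAT on HFD. KI points lie below every WT point for mRNA and tRNA in inguinal WAT on HFD, while the rRNA points of the genotypes overlap in each tissue and diet.

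In inguinal WAT on HFD, 24 of the 26 members that had enough counts to be tested fell in KI mice and 0 rose, where 5.24% of the 16471 genes tested fell. At an unadjusted p below 0.05 all 26 were lower, and DESeq2 called 26. The tests were edgeR quasi-likelihood tests over all genes, called at a Benjamini-Hochberg adjusted p below 0.01. The median log2 fold change was -1.81 over the members tested and 0.01 over all genes. All 13 mRNAs fell. For 18 of the 26, every KI mouse lay below every WT mouse, an order found in 1.76% of all genes tested. Here and below, this order was taken on TMM-scaled CPM for the members and on counts divided by the library total for all genes.

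The 7 complex I mRNAs encode the membrane-embedded subunits of NADH dehydrogenase, the entry point for electrons from NADH, and their median log2 fold change was -1.84. mt-Nd6 was at 3559, 5211 and 7989 CPM (lowest, median and highest mouse) in WT and 1011, 1155 and 1527 CPM in KI mice, a 4.51-fold fall (log2 fold change -2.17 ± 0.17 (SE), adjusted p = 8.18e-08). mt-Nd5 was at 3766, 6556 and 9710.5 CPM in WT and 1173, 1315 and 2151 CPM in KI mice, a 4.34-fold fall (-2.12 ± 0.19, adjusted p = 2.82e-07). For both genes the highest KI mouse lay under the lowest WT mouse. mt-Nd4 was at 3887, 8375 and 12786 CPM against 1705, 2200.4 and 2577 CPM (3.70-fold, -1.89 ± 0.21, adjusted p = 3.48e-06). mt-Nd1 was at 5568, 10519 and 18283 CPM against 2541, 2994 and 3985 CPM (3.58-fold, -1.84 ± 0.23, adjusted p = 1.31e-05). mt-Nd2 was at 4621, 10149 and 14278 CPM against 2087, 2669 and 3392 CPM (3.43-fold, -1.78 ± 0.21, adjusted p = 7.58e-06). None of these 3 overlapped either. The copied mt-Nd3 and mt-Nd4l fell by 1.49 ± 0.30 (adjusted p = 0.00189) and 1.44 ± 0.22 (adjusted p = 0.000114) on the log2 scale, and 7 of 8 KI mice lay below the lowest WT mouse for each.

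mt-Cytb, the only mitochondrially encoded subunit of complex III, which passes electrons to cytochrome c, was at 7711, 11888 and 24042 CPM in WT and 3252, 3869.5 and 4545 CPM in KI mice (3.36-fold, -1.75 ± 0.20, adjusted p = 5.51e-06). mt-Co1, the catalytic core of cytochrome c oxidase (complex IV), was the most abundant member per kilobase among the mRNAs. It was at 18514, 37758 and 58553 CPM in WT and 6279.9, 7203 and 12933 CPM in KI mice, a 4.46-fold fall (-2.16 ± 0.22, adjusted p = 1.3e-06), with a 95% interval of the KI to WT ratio of 0.166 to 0.302. Neither gene overlapped between genotypes. The other complex IV subunits mt-Co2 (-1.76 ± 0.22, adjusted p = 2.18e-05) and mt-Co3 (-2.002 ± 0.25, adjusted p = 2.01e-05) and the ATP synthase subunits mt-Atp6 (-1.72 ± 0.23, adjusted p = 5.18e-05) and mt-Atp8 (-1.30 ± 0.27, adjusted p = 0.00216) fell as well. mt-Co3 was at 20.04, 34.7 and 53.6 CPM in WT and 6.07, 7.76 and 13.8 CPM in KI mice. Of these 4, mt-Atp8 alone overlapped, with 5 of 8 KI mice below the lowest WT mouse.

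The 7 nuclear copies on chromosome 1 fell with the members they match, by 1.68 (Gm28438) to 2.07 (Gm29216) on the log2 scale. The median log2 fold change of the 6 low mRNAs was -1.61 and that of the other 7 was -1.89. As the sequences above show, counts on the copies and on the members are not independent measurements.

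**Figure D3:**
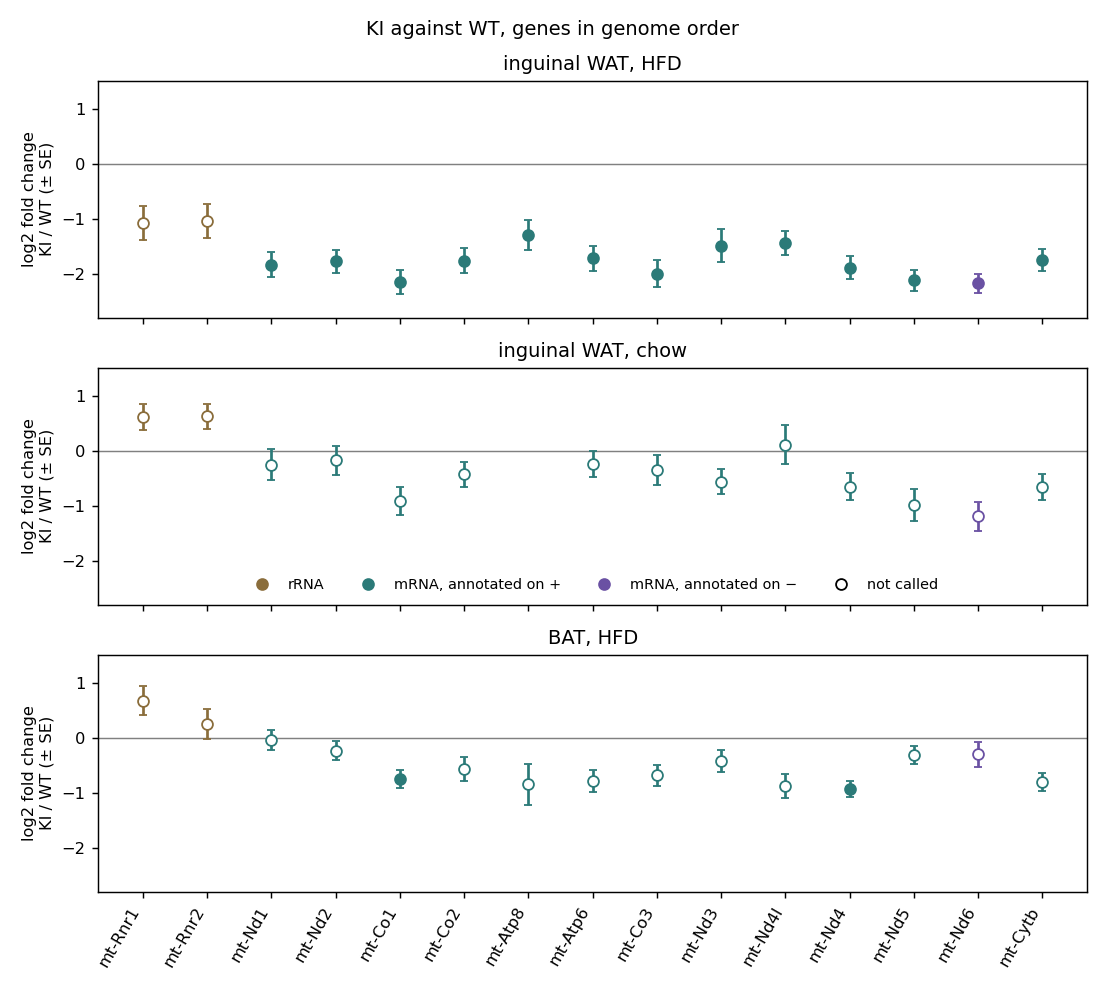
Log2 fold change of KI over WT mice, with its SE, for the 13 mRNAs and 2 rRNAs in inguinal WAT on HFD, inguinal WAT on chow and BAT on HFD (filled points: adjusted p below 0.01, edgeR). All 13 mRNAs are filled and between -1.30 and -2.17 in inguinal WAT on HFD, 0 are filled on chow, where mt-Atp8 was not tested, and mt-Nd4 and mt-Co1 are filled in BAT.

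The rRNAs of the mitochondrial ribosome did not pass the test in inguinal WAT on HFD. mt-Rnr1, of the small subunit, was at 461, 1113 and 2023 CPM in WT and 413, 502 and 914 CPM in KI mice (log2 fold change -1.08 ± 0.31, adjusted p = 0.0223). mt-Rnr2, of the large subunit, was at 619, 1149 and 2242 CPM and 434, 557 and 1057 CPM (-1.04 ± 0.31, adjusted p = 0.0243). The genotypes overlapped in both, with 2 and 5 of 8 KI mice below the lowest WT mouse.

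Of the 22 tRNAs, 11 could be tested in inguinal WAT on HFD and all 11 fell. No mouse of any group had more than 3 counts for mt-Tk, mt-Tf and mt-Tv, and mt-Tk had 0 throughout. A single tRNA, mt-Ts1 (serine), took 90.2% to 96.6% of the tRNA counts in the 6 groups. It was at 2992, 6656 and 10597 CPM in WT and 917, 1287 and 2434 CPM in KI mice (-2.22 ± 0.25, adjusted p = 5.73e-06), without overlap, and lies antisense to the stretch just behind mt-Co1. Across mice its count was 14.1 to 39.8 per 100 counts of mt-Co1, with the genotypes overlapping in each tissue and diet. mt-Tp (proline), separated from mt-Cytb by mt-Tt, was at 125, 219.9 and 443 CPM in WT and 30.0, 42.6 and 52.6 CPM in KI mice. This was a 6.44-fold fall (-2.69 ± 0.29, adjusted p = 6.2e-06). The neighbours mt-Tc (cysteine, 7.58-fold, -2.92 ± 0.37, adjusted p = 3.77e-05), mt-Ty (tyrosine, 7.24-fold, -2.86 ± 0.25, adjusted p = 4.94e-07) and mt-Tn (asparagine, 6.52-fold, -2.70 ± 0.48, adjusted p = 0.000892) had the largest folds of all members. mt-Ty was at 17.998, 30.8 and 55.4 CPM in WT and 2.79, 4.47 and 5.76 CPM in KI mice. mt-Te (glutamate) fell by 2.10 ± 0.19 (adjusted p = 6.95e-07), and mt-Ta by 1.86, mt-Tw by 1.66, mt-Tq by 1.62, mt-Tt by 1.54 and mt-Tl1 by 1.46 on the log2 scale. All but mt-Tq, mt-Tt and mt-Tl1 were without overlap. When 1 mouse was left out, mt-Tl1 lost its call without WT mouse 8 or KI mouse 1, 3, 4, 5 or 7 (adjusted p up to 0.0119) and mt-Tt without WT mouse 1, 5 or 8 or KI mouse 1, 3, 5, 6 or 8 (adjusted p up to 0.0135). By annotated strand, all 9 members of the opposite strand fell, with a median log2 fold change of -2.22, and 15 of the 17 others tested fell, with a median of -1.72. Of the 9, 8 are tRNAs, so strand cannot be told apart from RNA class here. The medians by class were -2.10 for tRNAs, -1.78 for mRNAs and -1.06 for rRNAs.

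Markers of other cell types are given beside these falls. The 8 brown adipocyte markers summed to 17.1 to 38.0 CPM in WT and 32.2 to 72.2 CPM in KI inguinal WAT on HFD, none of them at 0 throughout, and 2 of the 4 tested rose. The 10 skeletal muscle markers summed to 45.7 to 1467 CPM in WT and 23.1 to 4957 CPM in KI mice and 0 of 10 passed the test. Of 8 white adipocyte markers 3 fell and 0 rose, where 5.24% of all genes fell. They were the hormones Retn (-1.05), Adipoq (-0.85) and Lep (-0.62), and the list summed to 8593 to 13867 CPM in WT and 7128 to 12030 CPM in KI mice. Of 5 fibroblast markers Dpt alone fell (-0.75, adjusted p = 0.00342), and the list summed to 2412 to 4158 CPM in WT and 1941 to 3153 CPM in KI mice. The part of any of these in the falls of the members was not tested.

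On chow, 1 of 24 members tested fell in KI inguinal WAT and 0 rose, where 1.22% of the 14629 genes tested fell and 2.06% rose. At an unadjusted p below 0.05, 11 members were lower and 2 higher, and DESeq2 called 6, all lower. That member was mt-Tp, at 114, 133 and 277 CPM in WT and 46.5, 54.0 and 71.8 CPM in KI mice, without overlap (2.85-fold, -1.51 ± 0.19, adjusted p = 0.000343). No other member was without overlap, so that order held for 1 of the 24, against 1.67% of all genes tested. The median log2 fold change was -0.60 over the members and 0.00 over all genes, and 11 of the 12 mRNAs tested had negative values. mt-Co1 was at 7675, 12388 and 17519 CPM in WT and 4780.4, 5715 and 12846 CPM in KI mice (-0.92 ± 0.25, adjusted p = 0.0316). mt-Nd6 was at 1158, 1883 and 2841 CPM and 553, 664 and 1606 CPM (-1.19 ± 0.26, adjusted p = 0.0117). The overlap of both came from KI mouse 4, which held the highest KI value.

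The remaining chow values were smaller. mt-Nd5 had a log2 fold change of -0.98 ± 0.29 (adjusted p = 0.0513), mt-Cytb -0.66 ± 0.24 (adjusted p = 0.0978), mt-Nd4 -0.65 ± 0.24 (adjusted p = 0.103), mt-Nd1 -0.26 ± 0.28 (adjusted p = 0.617) and mt-Nd2 -0.18 ± 0.26 (adjusted p = 0.714). The copied mRNAs lay between -0.57 (mt-Nd3) and 0.11 (mt-Nd4l), with mt-Co2 at -0.43, mt-Co3 at -0.35 and mt-Atp6 at -0.24. The value of mt-Nd4l ran from -0.05 to 0.32 when 1 mouse was left out. mt-Rnr1 was at 339, 529.5 and 1063 CPM in WT and 619, 882 and 1278 CPM in KI mice (0.61 ± 0.24, adjusted p = 0.126). mt-Rnr2 was at 450.5, 578 and 1158 CPM in WT and 697, 969.8 and 1307 CPM in KI mice (0.62 ± 0.22, adjusted p = 0.0964). The rRNA values were thus positive where those of 11 mRNAs were negative, and neither rRNA passed the test.

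Without KI mouse 4, 8 of 24 members fell, against 0.988% of the 14783 genes tested, and 0 rose, against 1.73%. They were mt-Co1 (-1.20 ± 0.19, adjusted p = 0.0021), mt-Nd4 (-0.96 ± 0.17, adjusted p = 0.00447), mt-Nd5 (-1.32 ± 0.23, adjusted p = 0.00354), mt-Nd6 (-1.51 ± 0.20, adjusted p = 0.000503), mt-Tp (-1.60 ± 0.20, adjusted p = 0.000499), mt-Ts1 (-1.24 ± 0.20, adjusted p = 0.00204), mt-Tc (-1.54 ± 0.24, adjusted p = 0.0019) and mt-Tn (-1.61 ± 0.25, adjusted p = 0.00153). mt-Co1 in the other 5 KI mice was at 4780.4, 5493 and 6079 CPM and mt-Nd6 at 553, 654 and 736 CPM, each below every WT mouse. The rRNA values stayed positive at 0.47 and 0.52 (adjusted p = 0.255 and 0.193). The part of muscle RNA in the levels of KI mouse 4 was not tested. The brown adipocyte markers summed to 45.8 to 132 CPM in WT and 163 to 921 CPM in KI mice on chow, with Ucp1 at 0.961 CPM or less. Of 4 tested 2 rose with or without KI mouse 4, where 2.06% and 1.73% of all genes tested rose. White adipocyte markers summed to 8982 to 26139 CPM in WT and 8181 to 14021 CPM in KI mice, and fibroblast markers to 2490 to 5846 CPM and 1901 to 2952 CPM. Retn (-1.22) and Dpt (-1.28) were the only genes of these lists to fall, 1 of 8 and 1 of 5, and without KI mouse 4 neither was called. The part of these cell types was not tested either.

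In BAT, 3 of 30 members tested fell and 0 rose, where 0.475% of the 13267 genes tested fell and 1.36% rose. At an unadjusted p below 0.05, 11 members were lower and 3 higher, and DESeq2 called 6 lower and 2 higher. mt-Nd4 was at 13212, 17217 and 20939 CPM in WT and 7760.1, 9157 and 9780.0 CPM in KI mice, a 1.91-fold fall (-0.94 ± 0.14, adjusted p = 0.00114). mt-Co1 was at 46224, 61459 and 76106 CPM and 29067, 36476 and 42001 CPM, a 1.68-fold fall (-0.75 ± 0.16, adjusted p = 0.00978). Neither overlapped. The third, mt-Te, was at 113, 152 and 211 CPM in WT and 60.4, 79.0 and 115 CPM in KI mice (-0.85 ± 0.17, adjusted p = 0.00829), with 5 of 6 KI mice below the lowest WT mouse. mt-Cytb was at 21285, 29328 and 38170.3 CPM in WT and 13313, 16454 and 21067 CPM in KI mice and did not overlap, yet just missed the call (-0.81 ± 0.17, adjusted p = 0.01005). With mt-Nd4 and mt-Co1 it made 3 members with every KI mouse below every WT mouse, an order found in 0.927% of all genes tested.

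All 13 mRNAs had negative values in BAT, with a median of -0.69 against -0.01 over all genes, and the values differed along the genome. mt-Nd1, the first mRNA behind the rRNAs, was at 10091, 14889 and 20143 CPM in WT and 11697, 13844 and 18633 CPM in KI mice (-0.04 ± 0.18, adjusted p = 0.922), and its value ran from -0.13 to 0.09 when 1 mouse was left out. mt-Nd2 (-0.24 ± 0.17, adjusted p = 0.412), mt-Nd5 (-0.32 ± 0.16, adjusted p = 0.242) and mt-Nd6 (-0.30 ± 0.23, adjusted p = 0.441) overlapped as mt-Nd1 did. The copied mRNAs lay between -0.43 (mt-Nd3) and -0.88 (mt-Nd4l), with mt-Atp8 at -0.85, mt-Atp6 at -0.79, mt-Co3 at -0.69 and mt-Co2 at -0.57, and 0 of these 6 passed the test. mt-Rnr1 was at 2095, 4326 and 5302 CPM in WT and 3313, 6959.8 and 9145 CPM in KI mice (0.67 ± 0.27, adjusted p = 0.137), and mt-Rnr2 had a log2 fold change of 0.25 ± 0.27 (adjusted p = 0.607). mt-Tn (0.98 ± 0.21, adjusted p = 0.0148) and mt-Tc (0.91 ± 0.22, adjusted p = 0.025), which fell in inguinal WAT on HFD, had positive values here.

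The BAT calls depended on single mice. mt-Nd4 was called in all 12 fits that left out 1 mouse, mt-Co1 in 0 of 12 and mt-Te in 4 of 12. The count of members called was 1 without any of WT mice 1, 4, 5 and 6 or KI mice 2, 3, 4 and 6, 2 without WT mouse 3 or KI mouse 5, 4 without KI mouse 1 and 5 without WT mouse 2. WT mice 1 and 2 held skeletal muscle markers at 2339 and 2716 CPM and KI mouse 6 at 716 CPM, against at most 144 CPM in the others. White adipocyte markers did not overlap between genotypes, with sums of 2561, 2816 and 3157 CPM in WT and 1669, 1877 and 2189 CPM in KI mice, and fibroblast markers summed to 414, 494 and 939 CPM and 245, 276 and 456 CPM. By gene, 1 of 7 white adipocyte markers fell (Retn, -1.84, adjusted p = 0.0036), 1 of 5 fibroblast markers fell (Dpt, -1.37, adjusted p = 0.00652), and 0 rose in either list. The medians over the lists were -1.69 and -0.82, and 0 of 8 brown adipocyte markers passed the test. The part of these markers in the BAT values was not tested.

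**Figure D4:**
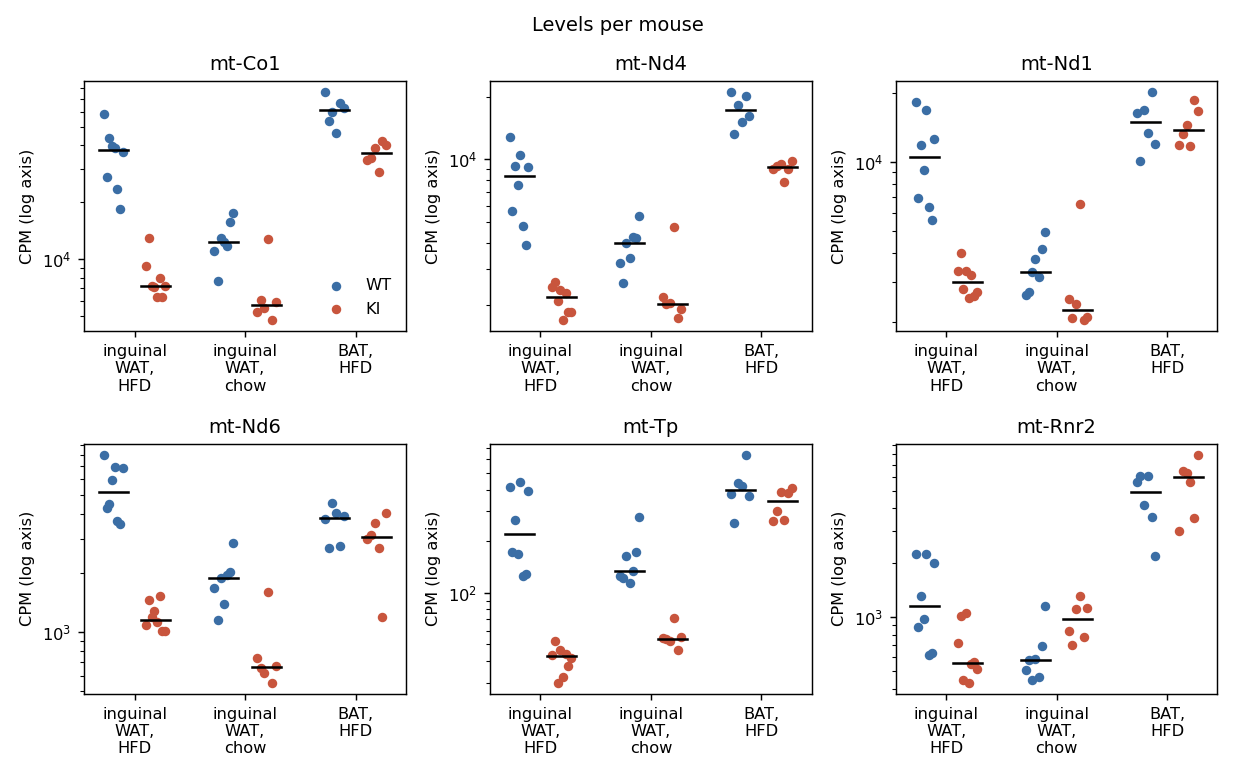
Level (CPM scaled within each count table, log axis) of mt-Co1, mt-Nd4, mt-Nd1, mt-Nd6, mt-Tp and mt-Rnr2 in each mouse of the 6 groups, with a line at the group median. In inguinal WAT on HFD the KI points lie below the WT points for all but mt-Rnr2, and in BAT this holds for mt-Co1 and mt-Nd4. On chow KI mouse 4 lies above the other KI mice for every gene shown.

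The relative make-up of the RNAs differed between genotypes in ways that a total does not show. The following ratios within a mouse were chosen after the levels had been seen and are given as descriptions. The rRNA counts per 100 mRNA counts were 1.97 to 4.00 (median 2.73) in WT and 4.21 to 8.20 (median 5.41) in KI inguinal WAT on HFD. On chow they were 2.63 to 5.44 (median 3.39) and 6.66 to 12.4 (median 10.4), and neither diet overlapped. Without KI mouse 4 the chow KI values were 7.73 to 12.4 (median 11.0). In BAT the values were 3.17 to 10.2 (median 6.03) in WT and 7.39 to 17.2 (median 15.8) in KI mice, which overlapped.

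Among the mRNAs, mt-Nd1, which lies next to the rRNAs, had the larger KI median relative to mt-Co1 in each comparison. mt-Nd1 counts per 100 counts of mt-Co1 were 18.7 to 30.1 (median 24.9) in WT and 35.4 to 44.4 (median 39.4) in KI BAT, without overlap. The medians were 28.6 and 39.3 in inguinal WAT on HFD and 26.9 and 43.2 on chow (42.7 without KI mouse 4), both with overlap. In BAT mt-Nd1 took 8.94% to 12.2% of the mRNA counts in WT and 14.2% to 18.6% in KI mice, while mt-Nd4 took 11.98% to 13.3% and 9.02% to 10.9%. On chow mt-Nd2 took 5.50% to 8.48% in WT and 8.90% to 11.8% in KI mice, and mt-Co1 took 37.7% to 41.4% and 32.8% to 36.8%. These were the 4 cases without overlap among the 13 mRNAs in the 3 comparisons, and in inguinal WAT on HFD there were 0. Both chow cases held without KI mouse 4, over unchanged ranges, and no other mRNA was without overlap there.

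mt-Tp counts per 100 counts of mt-Cytb, the nearest mRNA, went opposite ways in the tissues. They were 1.35 to 2.78 (median 1.88) in WT and 0.77 to 1.28 (median 1.12) in KI inguinal WAT on HFD, and 2.17 to 3.63 (median 2.54) and 1.06 to 1.88 (median 1.68) on chow, lower in every KI mouse. Without KI mouse 4 the chow KI values were 1.56 to 1.88 (median 1.69). In BAT they were 1.10 to 1.78 (median 1.38) and 1.65 to 2.31 (median 1.99), with overlap and the larger median in KI mice. mt-Nd6 counts per 100 counts of mt-Nd5, which lies end to end with it, overlapped in all 3 comparisons, over a range of 48.3 to 119.

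**Figure D5:**
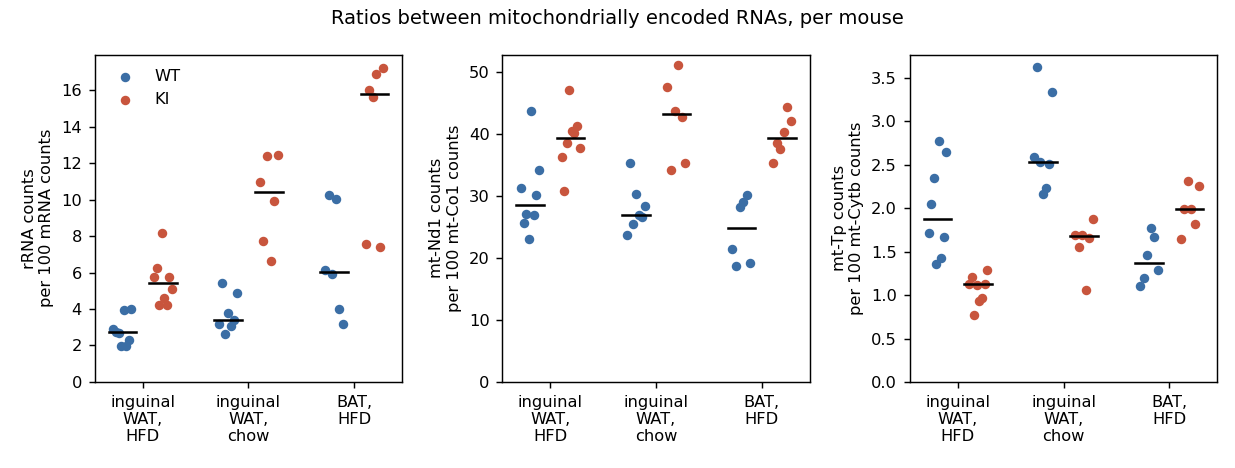
Ratios of counts within each mouse for the 6 groups, with rRNA per 100 mRNA counts, mt-Nd1 per 100 mt-Co1 counts and mt-Tp per 100 mt-Cytb counts, 1 point per mouse and a line at the group median. The rRNA ratio is higher in every KI mouse of inguinal WAT on either diet, the mt-Nd1 ratio separates the genotypes in BAT, and the mt-Tp ratio is lower in KI inguinal WAT but has the larger KI median in BAT.

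Diet was compared within each genotype in inguinal WAT. The diets are in separate count tables, so diet cannot be told apart from whatever else differed between the tables, and the comparisons share the HFD or chow mice used above. In WT mice 20 of 26 members tested were higher on HFD and 0 lower, where 11.7% of the 17400 genes tested were higher and 16.6% lower. Their median log2 fold change was 1.17 against 0.01 over all genes, and 12 of 13 mRNAs and both rRNAs were called. mt-Nd2 differed most among the mRNAs (1.95 ± 0.24, adjusted p = 2.81e-07), and mt-Co1 was higher by 1.41 ± 0.23 (adjusted p = 1.71e-05). mt-Nd1 (1.55), mt-Nd5 (1.51), mt-Nd6 (1.47), mt-Cytb (1.05), mt-Nd4 (0.96), mt-Rnr1 (1.03) and mt-Rnr2 (1.02) were also called, and mt-Te had the largest value of all members (2.87 ± 0.46, adjusted p = 1.65e-05). mt-Nd3 (0.74) and mt-Tp (0.65) did not pass the test. When 1 mouse was left out, the calls of mt-Atp8, mt-Co2, mt-Rnr1 and mt-Rnr2 were kept in 10, 7, 8 and 8 of 15 fits.

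In KI mice the same contrast gave a median of -0.02, with 0 members higher on HFD and 1 lower, where 14.1% of genes tested were higher and 16.6% lower. At an unadjusted p below 0.05, 3 members were higher and 6 lower, and DESeq2 called 1. The member called was mt-Tn (-2.21 ± 0.49, adjusted p = 0.000684). mt-Co1 had a log2 fold change of 0.18 ± 0.24 (adjusted p = 0.567), with a 95% interval of the HFD to chow ratio of 0.823 to 1.57. The median over the 13 mRNAs was 0.01 and that over the rRNAs -0.63. These values depended on chow KI mouse 4. Without it 3 members were higher on HFD and 0 lower, where 14% of the 17618 genes tested were higher and 13.9% lower, and the median over the members was 0.26. The 3 were mt-Te (1.42 ± 0.28, adjusted p = 0.000185), mt-Nd6 (0.86 ± 0.20, adjusted p = 0.00105) and mt-Nd5 (0.75 ± 0.22, adjusted p = 0.00772). mt-Tn was then at -1.43 ± 0.44 (adjusted p = 0.011) and no longer called. mt-Co1 ran from 0.06 to 0.49 when 1 mouse was left out, with the 0.49 without chow KI mouse 4 (adjusted p = 0.0805).

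The difference of the KI effect between diets was tested directly as an interaction. It passed for 2 of 26 members, mt-Nd2 (-1.58 ± 0.34, adjusted p = 0.00924) and mt-Tq (-1.79 ± 0.39, adjusted p = 0.00981), where 0.58% of the 17400 genes tested had a more negative effect on HFD. At an unadjusted p below 0.05 the effect was more negative on HFD for 23 of the 26, and DESeq2 called 14. The edgeR count depended on single mice. It was 0 in 19 of the 29 fits that left out 1 mouse, that without chow KI mouse 4 among them, 1 in 5 others, 5 without chow KI mouse 5 and 7 without HFD WT mouse 7.

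BAT had higher levels than inguinal WAT on HFD, with tissue likewise not separable from table. In WT mice 26 of 33 members were higher in BAT, where 26.9% of the 17214 genes tested were. The exceptions included mt-Nd2 (0.22, adjusted p = 0.35), mt-Nd5 (-0.18, adjusted p = 0.386) and mt-Nd6 (-0.04, adjusted p = 0.87, from -0.12 to 0.06 when 1 mouse was left out), while mt-Co1 was higher by 1.32 ± 0.20 (adjusted p = 1.07e-06), mt-Nd4 by 1.67, mt-Cytb by 1.74 and mt-Nd1 by 0.99. The rRNAs were higher by 2.24 (mt-Rnr1) and 2.30 (mt-Rnr2), and mt-Tq by 4.44. In KI mice 32 of 33 were higher, where 28.4% of genes tested were, with mt-Co1 at 2.77 ± 0.21 (adjusted p = 4.42e-13), mt-Rnr1 at 4.03 and mt-Tq at 6.00. mt-Ta (0.79) was the 1 member not called.

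The interaction of genotype with tissue passed for 13 of 33 members, all with the more negative KI effect in inguinal WAT, where 1.58% of genes tested had that sign. They included mt-Nd6 (1.91 ± 0.29, adjusted p = 9.96e-05), mt-Nd5 (1.83 ± 0.26, adjusted p = 4.07e-05), mt-Nd1 (1.84 ± 0.32, adjusted p = 0.000373), mt-Nd2 (1.57, adjusted p = 0.000872) and mt-Co1 (1.45 ± 0.29, adjusted p = 0.00153). mt-Cytb (0.98, adjusted p = 0.0289), mt-Nd4 (0.99, adjusted p = 0.0221) and mt-Rnr1 (1.80, adjusted p = 0.013) did not pass. Of the tRNAs, mt-Tc (3.87 ± 0.48, adjusted p = 1.23e-05), mt-Tn (3.72 ± 0.60, adjusted p = 0.00033) and mt-Ty (3.07 ± 0.38, adjusted p = 9.47e-06) had the largest differences, and mt-Tp, mt-Tl1, mt-Ts1, mt-Tq and mt-Te passed too.

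Among the nuclear-encoded partners of these subunits more genes rose than fell. In inguinal WAT on HFD, 6 of 37 nuclear complex I genes rose and 1 fell, with a median log2 fold change of 0.17, where 6.21% of genes tested rose. The largest rise was Ndufv1 (0.48, adjusted p = 0.000583), the subunit that binds NADH, and the fall was Ndufb3 (-0.55, adjusted p = 0.000778). In complex II, which has no mitochondrially encoded subunit, 3 of 4 genes rose, led by Sdhb (0.70, adjusted p = 9.15e-07). Complexes III, IV and V had 1 of 9, 3 of 14 and 3 of 15 genes higher and 0 lower, led by Uqcrc1 (0.32, adjusted p = 0.00181), Cox8b (1.04, adjusted p = 0.00654) and Atp5b (0.40, adjusted p = 0.00339). Cox8b is also a brown adipocyte marker.

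Genes for transcription and handling of mitochondrial RNA were counted in the same way. Of 18 genes for transcription of mitochondrial DNA and its regulation, edgeR called 0 in any of the 3 comparisons, and 5, 5 and 3 had an unadjusted p below 0.05 in HFD inguinal WAT, chow inguinal WAT and BAT. Polrmt, the mitochondrial RNA polymerase, had log2 fold changes of -0.06, -0.03 and 0.03 in HFD and chow inguinal WAT and in BAT, and Tfam, which packages the genome and starts transcription, 0.07, -0.03 and 0.12. Of 34 genes for RNA processing tested on HFD, Lrpprc (0.43 ± 0.08, adjusted p = 0.000601) and Hsd17b10 (0.37, adjusted p = 0.000337) rose and Fastkd3 (-0.44, adjusted p = 0.00415) fell. That is 2 of 34 higher and 1 lower, shares near or below the 6.21% and 5.24% of all genes tested. Lrpprc, which stabilises mitochondrial mRNAs together with Slirp, also rose on chow (0.49, adjusted p = 0.0027) and was at 0.29 in BAT (adjusted p = 0.241). Slirp was at 0.00, 0.14 and 0.26 and did not pass the test. On chow Grsf1 (0.34), Ndufa10 (0.57), Sdhb (0.68) and Cox8b (2.42) rose too, with 0 genes of these lists lower. By list that is 2 of 34 for RNA processing and 1 of 37, 1 of 4 and 1 of 14 for complexes I, II and IV, where 2.06% of all genes tested rose. Without KI mouse 4, Lrpprc (0.50), Ndufa10 (0.58) and Cox8b (2.35) were still called and Grsf1 and Sdhb were not. In BAT edgeR called 0 genes of these 7 lists, with 10 of 37 complex I genes at an unadjusted p below 0.05. Mfn2 had values of 0.34 ± 0.09 (adjusted p = 0.0114), 0.37 (adjusted p = 0.0789) and 0.29 (adjusted p = 0.113) and was not called.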

How the data were processed

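RNA was extracted from frozen tissue, and libraries were made from poly(A) RNA with Illumina TruSeq kits and read as pairs of 150 bases. Per the labels and the study's methods, the authors used cutadapt for trimming, STAR for alignment to GRCm38, SAMtools for sorting and featureCounts for the counts per gene. Versions, strand setting and the treatment of reads with several matches are not given in the sources used here. The deposited raw counts (41 columns, from 57 libraries) were used without further alignment. Entries without length or counts (1884 of 54838) and repeats of a symbol were left out.

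KI and WT mice were compared separately within each count table with edgeR 4.0.16 under R 4.3.3 (TMM, filterByExpr, robust quasi-likelihood test, genotype as the only term) over all genes, and called at a Benjamini-Hochberg adjusted p below 0.01. Diet contrasts used the 4 inguinal groups and tissue contrasts the 4 HFD groups. CPM were scaled by TMM within each count table, so levels are compared between tables only through the joint fits. Shares, levels and ratios are descriptions. Alternatives were an adjusted p below 0.05, a replicate block, 1 fit of all 6 groups, RLE size factors, DESeq2 1.42.0, a minimum of 10 counts in every mouse, omission of the low-count filter, library sizes and shares relative to nuclear counts, length-scaled counts and each mouse left out. The self-test on simulated counts recovered 86% of genes changed by a log2 value of 1.5 in the HFD inguinal comparison. It recovered 78.5% in the chow comparison, 87% in BAT, 61.5% in the diet interaction and 61% in the tissue interaction. Smaller changes were not simulated, so recovery at the member medians of -0.60 on chow and -0.34 in BAT is not known. Sequences and coordinates come from GENCODE vM21 transcripts (GRCm38).

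The members and lists were chosen with earlier results of these data known. The text gives all 37 members by count, with values for the 13 mRNAs, the 2 rRNAs, the tRNAs called between genotypes, the 3 tRNAs with most counts, the nuclear copies, the largest rise and fall in each nuclear list, and Mfn2, Polrmt, Tfam, Lrpprc and Slirp. No source used here says whether the BAT and inguinal samples of HFD-fed mice share animals, and they were treated as separate. Sequencing depth was 8042591 to 25680411 counts per mouse, and the low tRNAs and mt-Atp8 had few counts. The cause of their low counts was not tested.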

Additional observations from a re-analysis of the deposited data

Results flagged for a closer look

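Each named member's level and the share of all counts on the 37 genes were examined in the 6 groups for a single mouse lying far from the rest by Dixon's test. Of 162 such groups 23 had one, where chance gives about 1 in 20. In KI inguinal WAT on chow, mouse 4 was highest for 13 of these measures. It had a share of 3.84%, and levels of 6569.8 CPM for mt-Nd1, 4005 CPM for mt-Nd2, 12846 CPM for mt-Co1, 19.998 CPM for mt-Atp6, 4743 CPM for mt-Nd4, 2149.9 CPM for mt-Nd5, 1606 CPM for mt-Nd6 and 6788 CPM for mt-Cytb. Its tRNA levels were 36.0 CPM for mt-Tn, 24.8 CPM for mt-Tc, 52.6 CPM for mt-Te and 71.8 CPM for mt-Tp. The same mouse had skeletal muscle markers at 77372 CPM, whose part was not tested. In WT inguinal WAT on chow, mouse 7 was highest for mt-Rnr1 (1063 CPM), mt-Rnr2 (1158 CPM), mt-Nd3 (21.5 CPM), mt-Tn (38.6 CPM) and mt-Tp (276.5 CPM). In KI inguinal WAT on HFD, mouse 2 was highest for the share (3.68%, with the next mouse at 2.75%), mt-Co1 (12933 CPM) and mt-Tq (5.80 CPM), and mouse 6 for mt-Nd4l (2.68 CPM). In KI BAT, mouse 5 was highest for mt-Ty (90.9 CPM).

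The difference of the KI effect between groups passed its own test (edgeR interaction, adjusted p below 0.01) for 15 values on the log2 scale. Between diets in inguinal WAT they were -1.79 for mt-Tq and -1.58 for mt-Nd2, HFD minus chow. Between tissues on HFD, BAT minus inguinal WAT, they were 3.87 for mt-Tc, 3.72 for mt-Tn, 3.07 for mt-Ty, 2.41 for mt-Tp, 1.92 for mt-Tl1, 1.91 for mt-Nd6, 1.84 for mt-Nd1, 1.83 for mt-Nd5, 1.74 for mt-Ts1, 1.57 for mt-Nd2, 1.55 for mt-Tq, 1.45 for mt-Co1 and 1.29 for mt-Te.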

How the results depend on the processing

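The count of members called in inguinal WAT on HFD was 20 to 26 under all settings, 22 to 25 with 1 mouse left out and 20 with a replicate block. On chow it was 6 with DESeq2, 5 in a fit of all 6 groups, 5 at an adjusted p below 0.05, and 1 to 8 with 1 mouse left out, the 8 without KI mouse 4. In BAT it was 8 with DESeq2, 1 with RLE size factors, 1 in the fit of all 6 groups, 9 at an adjusted p below 0.05, and 1 to 5 with 1 mouse left out. The replicate block gave 1 call on chow and 3 in BAT. The deviations of same-numbered WT and KI mice had r of -0.0753 to 0.432 in BAT, -0.274 to 0.179 on chow and -0.245 to 0.654 on HFD. WT mice were closest to the same-numbered KI mouse in 3 of 6 pairs (BAT), 1 of 6 (chow) and 1 of 8 (HFD). Whether the numbers pair the mice cannot be told from this. For HFD against chow, leaving out 1 mouse gave 16 to 22 calls in WT and 1 to 3 in KI mice, the 3 without chow KI mouse 4, all higher on HFD where the call with all mice was lower, and an adjusted p below 0.05 gave 2 in KI mice. The diet interaction had 14 calls with DESeq2, 0 without the low-count filter, 5 in the fit of all 6 groups, 14 at an adjusted p below 0.05 and 0 to 7 with 1 mouse left out. The tissue interaction had 20 at an adjusted p below 0.05 and 11 to 16 with 1 mouse left out. With nuclear counts as denominator the BAT shares became 19.5 and 12.9 per 100 in WT and KI mice.

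Values near 0 changed sign with single mice left out. In BAT, mt-Nd1 ran from -0.128 to 0.0883 (0.000999 in the fit of all 6 groups), mt-Tq from -0.186 to 0.0258, mt-Tw from -0.0471 to 0.270 and mt-Ty from -0.130 to 0.269. On chow, mt-Nd4l ran from -0.0493 to 0.322 and mt-Te from -0.614 to 0.907. For HFD against chow in KI mice, mt-Atp6 ran from -0.111 to 0.288, mt-Cytb from -0.0559 to 0.270 (0.0300 without the filter), mt-Nd1 from -0.0720 to 0.415 (0.0335 without the filter), mt-Nd3 from -0.246 to 0.00160 and mt-Nd4 from -0.308 to 0.0685. For BAT against inguinal WAT in WT mice, mt-Nd6 ran from -0.124 to 0.0586. The cause was not tested.

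Gene counts cannot separate the members from their copies on chromosome 1, and the strand of the RNA counted is not known. The rRNA and tRNA were counted after poly(A) selection.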
